A study of Homo sapiens with 12 samples.

Results

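The nuclear genes for the subunits of the mitochondrial respiratory chain and of ATP synthase were examined in the human multiple myeloma line KMS-11 after exposure to NSC12. They were chosen by symbol: genes starting with NDUFA, NDUFB, NDUFC, NDUFS or NDUFV and a number, SDHA to SDHD, and genes starting with UQCR, COX4 to COX8 or ATP5, each represented by its brightest probe. The rule kept 81 of 20045 measured genes. Of these, 79 encode subunits: 35 of complex I, 3 of complex II, 8 of complex III, 16 of complex IV and 17 of complex V. COX7A2L, which helps respiratory supercomplexes form, and ATP5IF1, an inhibitor of ATP synthase, were counted apart. The pseudogenes ATP5F1EP2 and UQCRBP1 and the noncoding NDUFB2-AS1 also carried matching symbols and were left out. Some other nuclear subunits and those encoded by mitochondrial DNA were not analysed here.

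The arrays were made from KMS-11 cells that had spent 24 h in 1% FBS before either agent was added. The 4 groups, each of 3 arrays, were NSC12 at 6 µM for 6 h, DMSO for 6 h, NSC12 at 6 µM for 12 h and DMSO for 12 h. NSC12 is a small molecule that, per the study's title, traps fibroblast growth factors, and DMSO served as the vehicle. Every group shared the low-serum period, and all arrays came from 1 cell line.

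Complex I oxidises NADH and complex II oxidises succinate, and both pass electrons to ubiquinone. Complex III hands these electrons to cytochrome c, complex IV gives them to oxygen, and complexes I, III and IV pump protons as they do so. ATP synthase, also called complex V, lets the protons flow back through a rotating ring in the membrane and makes ATP in its F1 head. Most subunits are encoded in the nucleus and imported, while a small core is made inside the mitochondrion. Plasma cells and their malignant counterparts secrete large amounts of protein and use respiration for part of the ATP this costs.

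Levels are log2 probe intensities after quantile normalization, and levels of different probes cannot be ranked against each other. A background level of 6.97 was taken from olfactory receptor genes, and 71 of the 79 subunit genes lay above it in at least 1 group. Mean intensity per array was 428.3 ± 61.6 in NSC12 at 6 h, 521.5 ± 153 in DMSO at 6 h, 588 ± 36.0 in NSC12 at 12 h and 537.6 ± 77.3 in DMSO at 12 h (SD, n = 3 each). All 8 plasma cell markers lay above background, against 1 of 5 T and NK cell markers, 3 of 5 myeloid markers and 2 of 5 stromal and endothelial markers. At 12 h, 5 of the 8 plasma cell markers were called lower with NSC12. Of all genes 15.2% were called lower, and 3023 of the 12634 genes above background. The summed intensity of these markers was 3.93e+04 to 4.09e+04 in NSC12, against 4.52e+04 to 4.65e+04 in DMSO. At 6 h the sum was 3.92e+04 to 4.29e+04 in NSC12, against 4.22e+04 to 4.28e+04 in DMSO. Of the plasma cell markers 1 was then called higher and 2 lower, beside 5.56% and 7.51% of all genes. From 6 h to 12 h in DMSO, 1 of these markers was called higher, and their median change was 0.14. The myeloid list summed to 1231 to 1451 in NSC12 and 992.7 to 1181 in DMSO at 12 h, with CD68, a lysosomal protein also made outside myeloid cells, as its only called member. At 6 h the myeloid list summed to 837.1 to 882.9 in NSC12 and 933.6 to 1055 in DMSO. What part these markers had in the results below was not tested. In bulk RNA, fewer cells and less RNA per cell cannot be told apart. With 3 arrays a group the precision is limited, and p-values measure the spread between arrays, which may be technical, since nothing says that replicates came from separate cultures.

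After 12 h of NSC12, transcripts of the chain did not move as a block. SDHA, the succinate-oxidising subunit of complex II, and ATP5F1A, the alpha subunit of the F1 head of ATP synthase, fell more than any other subunit by the brightest probe of each gene. The 3 largest rises in complex I were of NDUFA7, NDUFS7 and NDUFB11, and SDHC and SDHD, the membrane anchors of complex II, also rose. In all, 21 subunits rose and 7 fell at 12 h by limma with a Benjamini-Hochberg adjusted p under 0.05, which was 35.4% of the 79. Among all 20045 genes, 28.9% were called (13.6% higher and 15.2% lower). Among genes above background the share was 45.3%, against 39.4% of the 71 subunits above background. Calls of both directions together were thus not more frequent among subunits than among genes of detectable level. By direction, 21 of those 71 subunits were higher and 7 lower, beside 2706 higher and 3023 lower of the 12634 genes above background. This contrast in direction was not tested. The arrays of both groups did not overlap for 36 subunits, 26 of them higher and 10 lower with NSC12, beside 38.2% of all genes (18.1% higher and 20% lower). Of the 12634 genes above background, 3284 were higher and 3628 lower without overlap, a larger share than of all genes. Lack of overlap was thus not more frequent among subunits than among genes of detectable level.

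At 6 h, 4 subunits rose and 5 fell (11.4% of 79, and 12.7% of the 71 above background). The share of all genes called was 13.1% (5.56% higher and 7.51% lower), and of those above background 20.4%. The arrays of both groups did not overlap for 29 subunits, 14 higher and 15 lower, beside 27.9% of all genes (12.9% higher and 15% lower). Of the 12634 genes above background, 2240 were higher and 2635 lower without overlap, a share near that of the subunits. At both times 6 subunits were called, each in the same direction: NDUFS7, SDHD and UQCR10 rose, and SDHA, ATP5F1A and ATP5PO fell. Another 3 were called at 6 h alone and 22 at 12 h alone, and 48 at neither time. Under median centring in place of quantile normalization, only NDUFA13 of the 9 calls at 6 h passed, and 16 of the 28 calls at 12 h did, so the calls at 6 h depend on the scaling. Leaving out 1 array at a time left 1 to 4 rises and 3 to 6 falls at 6 h.

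**Figure D1:**
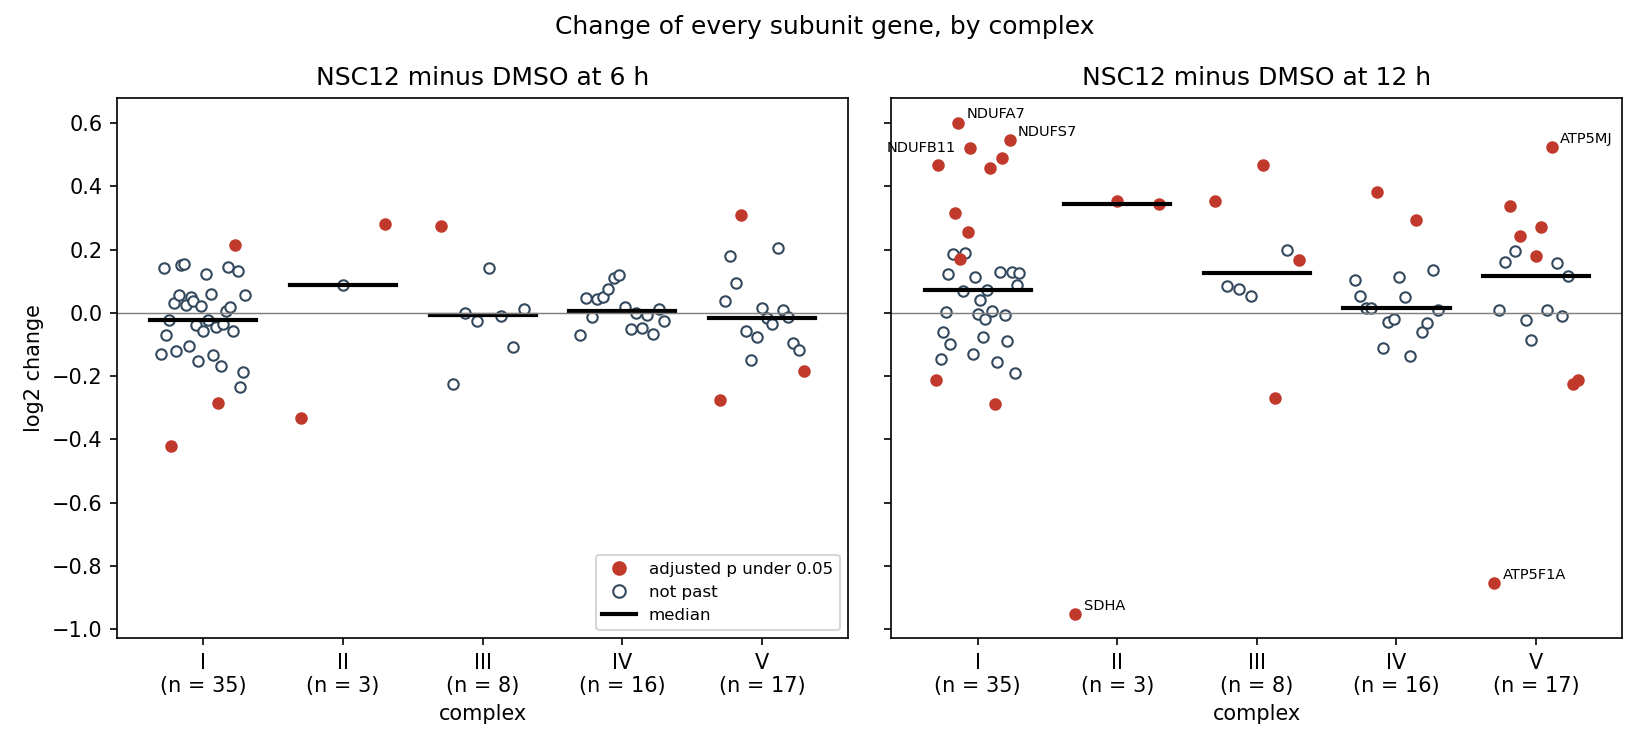
Log2 change of each subunit gene, NSC12 minus DMSO, at 6 h (left panel) and 12 h (right panel), grouped by complex on the horizontal axis. Each point is 1 gene, filled where the limma adjusted p was under 0.05, and the black line is the median of the complex. At 12 h SDHA (-0.95) and ATP5F1A (-0.85) lie far below every other subunit. Medians at 12 h run from 0.02 in complex IV to 0.35 in complex II, where the median of 3 genes is the value of SDHD.

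Medians by complex stayed near 0 at 6 h: -0.02 for complex I, 0.09 for complex II, -0.01 for complex III, 0.01 for complex IV and -0.02 for complex V. At 12 h they were 0.07, 0.35, 0.13, 0.02 and 0.12 in the same order, beside -0.00 for all genes. That of complex II rests on 3 genes and is the value of SDHD, between SDHA (-0.95) and SDHC (0.36). SDHB was not among the measured genes. Complex IV had 2 of 16 subunits called, and its median over the 10 above background was 0.06. Median centring gave higher medians at 12 h, 0.18 for complex I, 0.22 for complex III, 0.18 for complex IV and 0.26 for complex V, so the order of the complexes depends on the scaling. Median centring gives every array the same median over all probes. A median of all genes near 0 (-0.01 at 12 h) was therefore built in and is no control for these shifts. Whether other genes of like intensity shifted in the same way was not tested.

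The promoters of the genes with the largest falls and of the 2 complex I genes with the largest rises are shown because these genes moved in opposite directions while belonging to 1 pathway. The sequences are from RefSeq (GRCh38.p14), 250 bases before to 50 after the start, 5′ to 3′ on the strand of the gene, and capitals mark the letters of the motifs searched.
SDHA (chr5:218070-218369, plus strand): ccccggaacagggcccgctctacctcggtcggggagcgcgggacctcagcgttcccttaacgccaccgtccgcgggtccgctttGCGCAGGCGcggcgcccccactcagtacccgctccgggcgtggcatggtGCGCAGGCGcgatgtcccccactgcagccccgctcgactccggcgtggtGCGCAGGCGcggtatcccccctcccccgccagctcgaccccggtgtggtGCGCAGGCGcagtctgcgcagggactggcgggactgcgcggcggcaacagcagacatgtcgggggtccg
ATP5F1A (chr18:46104178-46104477, minus strand): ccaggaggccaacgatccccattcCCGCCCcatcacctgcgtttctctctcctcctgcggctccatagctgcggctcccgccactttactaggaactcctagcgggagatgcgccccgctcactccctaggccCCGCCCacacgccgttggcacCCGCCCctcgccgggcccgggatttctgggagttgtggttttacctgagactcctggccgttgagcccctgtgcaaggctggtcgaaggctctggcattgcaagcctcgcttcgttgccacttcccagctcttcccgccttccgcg
NDUFA7 (chr19:8321326-8321625, minus strand): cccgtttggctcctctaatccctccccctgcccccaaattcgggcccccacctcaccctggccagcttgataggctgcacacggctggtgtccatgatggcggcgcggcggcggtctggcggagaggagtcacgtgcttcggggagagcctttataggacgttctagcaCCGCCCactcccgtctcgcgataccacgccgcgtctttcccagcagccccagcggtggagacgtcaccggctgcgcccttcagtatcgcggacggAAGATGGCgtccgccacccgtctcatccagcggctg
NDUFS7 (chr19:1383657-1383956, plus strand): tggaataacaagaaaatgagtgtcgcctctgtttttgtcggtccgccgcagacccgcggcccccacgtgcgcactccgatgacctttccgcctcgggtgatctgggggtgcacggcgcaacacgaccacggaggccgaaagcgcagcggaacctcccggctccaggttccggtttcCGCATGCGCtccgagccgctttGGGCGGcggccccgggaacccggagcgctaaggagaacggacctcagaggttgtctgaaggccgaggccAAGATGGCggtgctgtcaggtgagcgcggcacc
The SDHA promoter holds 4 copies of GCGCANGCG, the central letters of the motif of NRF1, a regulator of respiratory genes, evenly spaced and all on the strand of the gene. The ATP5F1A promoter holds 3 matches to GGGCGG, the SP1 letters, all on the opposite strand and so shown as CCGCCC. NDUFA7 and NDUFS7 each hold 1 SP1 match and 1 AAGATGGC, the YY1 letters, just after the start, and NDUFS7 also holds 1 NRF1 match, on the opposite strand. No match in these 4 windows overlaps another motif.

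Promoters of 65 of the 79 subunits were matched. On either strand, GCGCANGCG was in 21 of these 65 (32.3%), against 8.05% of 27305 promoters of all genes. That comparison set was not limited to genes measured or above background here, and no share among such genes was computed. CCGGAAG, the letters of the ETS factor GABPA, was in 19 (29.2%, against 10.7%), AAGATGGC in 10 (15.4%, against 3.03%) and GGGCGG in 38 (58.5%, against 44.6%). GAANNTTC, a pair of heat shock factor units, was in 3 (4.62%, against 6.87%). Among subunits with a matched promoter, GCGCANGCG was in 7 of the 17 that rose at 12 h and in 3 of the 6 that fell, and AAGATGGC was in 4 of 17 and 2 of 6. The motifs were chosen after some of these promoters had been read, and a match is a description of letters, not of a binding site.

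Complex I was the largest group, and 9 of its 35 subunits rose and 2 fell at 12 h. That is 31.4% called, beside 28.9% of all genes and 45.3% of genes above background. NDUFA7, an accessory subunit, read 11.59, 11.81 and 11.56 on the NSC12 arrays, against 11.07, 11.06 and 11.02 on the DMSO arrays at 12 h. NDUFS7, which carries the iron-sulfur cluster next to the ubiquinone site, read 12.08, 12.17 and 12.08 in NSC12, against 11.59, 11.63 and 11.48 in DMSO. NDUFB11, an accessory subunit of the membrane arm, read 12.58, 12.93 and 12.66 in NSC12, against 12.35, 12.19 and 12.08 in DMSO. For each of these, every NSC12 array lay above every DMSO array, and replicate 2 was the highest NSC12 array. The log2 changes were 0.60 ± 0.08 (SE, adjusted p = 1.65e-06, limma) for NDUFA7, 0.55 ± 0.07 (adjusted p = 1.93e-06) for NDUFS7 and 0.52 ± 0.08 (adjusted p = 4.16e-05) for NDUFB11. NDUFS4, an accessory subunit of the NADH-oxidising end, rose by 0.49 ± 0.07 (adjusted p = 8.27e-06). The other 5 that rose, NDUFA10, NDUFB9, NDUFA6, NDUFB10 and NDUFA8, changed by 0.17 to 0.47, but the second probe of NDUFA10 gave -0.14 and did not pass. The NDUFB9 call was lost without replicate 3 of DMSO, that of NDUFB10 without that array or replicate 2 or 3 of NSC12, and that of NDUFA8 without replicate 1 or 2 of DMSO or 1 or 3 of NSC12. Over all alternatives their lowest values were 0.31, 0.14 and 0.14. Median centring ended the calls of NDUFA10 (0.44, adjusted p = 0.0734), NDUFA6 (0.27, adjusted p = 0.324) and NDUFA8 (0.42, adjusted p = 0.055), and the NDUFA10 call was also lost when its probes were averaged (0.16, adjusted p = 0.114).

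Falls in complex I were smaller. NDUFC2, a membrane-arm subunit close to background, read 6.78, 6.88 and 6.84 in NSC12 at 12 h, against 7.12, 7.16 and 7.10 in DMSO. The groups did not overlap, and since the NSC12 mean lay below background the level was at least 1.11-fold lower (fitted adjusted p = 0.000662, limma). NDUFA1, a small accessory subunit, was at 13.50 ± 0.07 in NSC12 and 13.71 ± 0.03 in DMSO (SD, n = 3 each) and changed by -0.21 ± 0.06 (adjusted p = 0.00586). That value was 0.07 under median centring and lost its call. Of the 6 measured subunits of the catalytic core that hold the flavin and iron-sulfur clusters or bind ubiquinone, NDUFV1, NDUFV2, NDUFS1, NDUFS3, NDUFS7 and NDUFS8, NDUFS7 alone was called.

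At 6 h the largest fall in complex I was of NDUFA13, an accessory subunit also known as GRIM-19. It read 10.16, 10.26 and 10.14 in NSC12, against 10.48, 10.71 and 10.63 in DMSO, with no overlap. The change was -0.42 ± 0.09 (adjusted p = 0.00333, limma), and it passed under all 20 alternatives. At 12 h the same gene stood at 10.62 ± 0.07 in NSC12 and 10.62 ± 0.22 in DMSO (SD, n = 3 each). NDUFC1, a small membrane-arm subunit, fell by 0.28 at 6 h (adjusted p = 0.0305) and stood at 0.01 at 12 h. Its call at 6 h was lost without replicate 1 (-0.25, adjusted p = 0.121) or 2 (-0.30, adjusted p = 0.0665) of DMSO or replicate 1 (-0.27, adjusted p = 0.105) or 3 (-0.25, adjusted p = 0.129) of NSC12. NDUFS7 rose by 0.21 at 6 h (adjusted p = 0.044), a call lost when any of 7 single arrays was left out (0.17 to 0.22, adjusted p = 0.0505 to 0.195). These were replicates 1 and 3 of DMSO and 1 and 2 of NSC12 at 6 h, and replicate 2 of DMSO and 1 and 3 of NSC12 at 12 h.

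**Figure D2:**
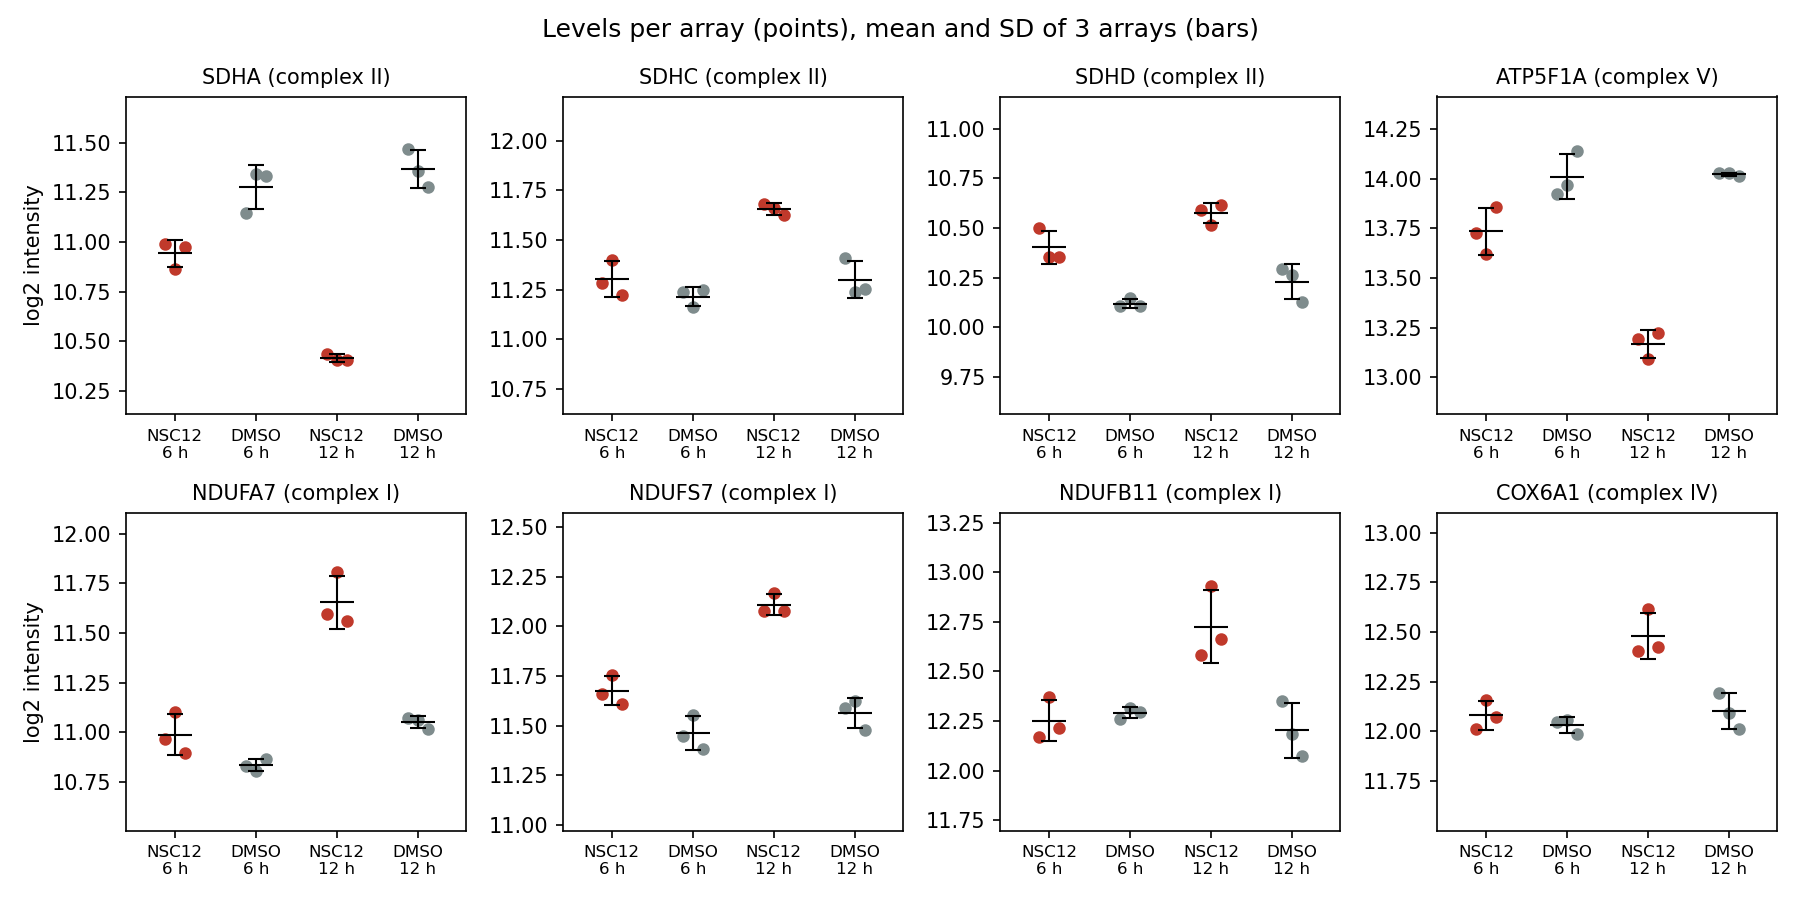
Log2 intensity of 8 subunit genes on every array, in NSC12 and DMSO at 6 h and at 12 h. Points are single arrays and bars are the mean and SD of 3 arrays, and the vertical scale differs in its origin between panels but covers the same range. SDHA and ATP5F1A are lowest on the NSC12 arrays at 12 h, and the other genes are highest there.

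Members of complex II moved in opposite directions. SDHA, the flavoprotein that oxidises succinate, read 10.44, 10.41 and 10.41 in NSC12 at 12 h, against 11.47, 11.36 and 11.28 in DMSO. At 6 h it read 10.99, 10.87 and 10.98 in NSC12, against 11.15, 11.34 and 11.33 in DMSO. The NSC12 arrays lay below every DMSO array at both times, and the 12 h NSC12 arrays were the lowest of all. The change was -0.95 ± 0.07 at 12 h (1.93-fold lower, adjusted p = 1.65e-09, limma) and -0.33 ± 0.07 at 6 h (adjusted p = 0.00355). The call at 12 h passed under all 20 alternatives, and the call at 6 h was lost under median centring (-0.46, adjusted p = 0.12).

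SDHC and SDHD, the subunits that anchor complex II in the membrane and bind ubiquinone, went the other way. SDHC read 11.68, 11.66 and 11.63 in NSC12 at 12 h, against 11.41, 11.24 and 11.26 in DMSO. SDHD read 10.59, 10.52 and 10.62 in NSC12 at 12 h, against 10.29, 10.27 and 10.13 in DMSO. Neither pair of groups overlapped, and the rises were 0.36 ± 0.07 for SDHC (adjusted p = 0.000375, limma) and 0.35 ± 0.07 for SDHD (adjusted p = 0.000749). At 6 h SDHD rose by 0.28 ± 0.07 (adjusted p = 0.011), while SDHC stood at 0.09 ± 0.07 (adjusted p = 0.522). Median centring left the rises at 12 h at 0.46 (adjusted p = 0.0577) for SDHC and 0.33 (adjusted p = 0.22) for SDHD, both short of the threshold. The SDHD call at 6 h was also lost without replicate 1 of NSC12 at 6 h (0.23, adjusted p = 0.0783).

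In complex III, 3 of 8 subunits rose and 1 fell at 12 h (50% called, beside 45.3% of genes above background). UQCRC2, a core subunit facing the matrix, averaged 10.38 ± 0.09 in NSC12 and 9.92 ± 0.14 in DMSO (SD, n = 3 each) and rose by 0.47 ± 0.11 (adjusted p = 0.002, limma). UQCR10, a small subunit, read 10.48, 10.54 and 10.27 in NSC12, against 10.22, 10.08 and 9.93 in DMSO, and rose by 0.35 ± 0.09 (adjusted p = 0.00287). The groups did not overlap for either gene. Under median centring neither passed (0.43 with adjusted p = 0.0809 and 0.33 with adjusted p = 0.221). UQCRQ, a small ubiquinone-binding subunit, rose by 0.17 (adjusted p = 0.0214). That call was lost without replicate 2 (0.15, adjusted p = 0.1) or 3 (0.15, adjusted p = 0.0654) of DMSO or replicate 1 (0.16, adjusted p = 0.06) or 2 (0.15, adjusted p = 0.0823) of NSC12. The UQCRQ call was also lost under median centring (0.31, adjusted p = 0.119) and cyclic loess (0.10, adjusted p = 0.226). At 6 h UQCR10 alone was called (0.28, adjusted p = 0.0379), and it missed the threshold in 10 of the 20 alternatives, with values of 0.24 to 0.30 and adjusted p of 0.0525 to 0.147 where a single array was left out. These arrays were replicates 1 and 2 of DMSO and all 3 of NSC12 at 6 h, and replicate 2 of DMSO at 12 h. The dimmer probes of UQCR10 gave -0.01 and 0.20 at 6 h, neither called. At 12 h they gave 0.72 (adjusted p = 6.45e-07 over all probes, limma) and 0.09 (adjusted p = 0.54).

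UQCRH, the hinge protein of complex III that meets cytochrome c1, had probes that moved in opposite directions. Its brightest probe read 13.51, 13.34 and 13.28 in NSC12 at 12 h, against 13.57, 13.68 and 13.68 in DMSO, a change of -0.27 ± 0.07 (adjusted p = 0.00268, limma). Its other probe read 11.50, 11.93 and 11.94 in NSC12, against 10.56, 10.64 and 10.64 in DMSO, a change of 1.18 ± 0.11 (adjusted p = 2.11e-08 over all probes). Neither pair of groups overlapped, so the gene has no single direction here. UQCRHL, a near-identical copy of UQCRH, gave 0.20 (adjusted p = 0.0784), and its probe may share signal with that of UQCRH, which leaves both uncertain.

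In complex IV no member was called at 6 h, and its members of highest intensity, COX7C and COX6C, changed by -0.07 and 0.02. At 12 h 2 of 16 rose (12.5%, beside 28.9% of all genes called), both among the 10 above background. Of all genes above background 45.3% were called. COX6A1, a small nuclear-encoded subunit, read 12.41, 12.62 and 12.42 in NSC12, against 12.19, 12.09 and 12.01 in DMSO, and COX7B, another small subunit, read 12.65, 12.89 and 12.71, against 12.53, 12.55 and 12.29 in DMSO. The groups did not overlap for either, and the rises were 0.38 ± 0.07 (adjusted p = 0.000187, limma) and 0.29 ± 0.09 (adjusted p = 0.0118). The COX7B call was lost without replicate 3 of DMSO (0.21, adjusted p = 0.0748) or replicate 2 of NSC12 (0.22, adjusted p = 0.0929). COX4I2, COX6A2, COX6B2, COX7A1, COX7B2 and COX8C, isoforms known from lung, muscle or testis, lay below background in every group. NDUFB4 and NDUFS6 of complex I, which are not such isoforms, also lay below it. An unexpressed gene and a probe that misses its transcript cannot be told apart here.

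Of the 17 subunits of ATP synthase, 5 rose and 3 fell at 12 h (47.1% called, beside 45.3% of genes above background). In the F1 head, ATP5F1A read 13.19, 13.09 and 13.22 in NSC12, against 14.03, 14.03 and 14.01 in DMSO. At 6 h it read 13.72, 13.62 and 13.86 in NSC12, against 13.92, 13.97 and 14.14 in DMSO. The NSC12 arrays lay below every DMSO array of the same time, and by more at 12 h. The change was -0.85 ± 0.07 at 12 h (1.81-fold lower, adjusted p = 1.21e-09, limma) and -0.28 ± 0.07 at 6 h (adjusted p = 0.00561). The call at 6 h was lost without replicate 3 of DMSO (-0.21, adjusted p = 0.0559) or replicate 2 of NSC12 (-0.22, adjusted p = 0.0546) and under median centring (-0.33, adjusted p = 0.177).

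ATP5F1B, the catalytic beta subunit that alternates with alpha around the head, read 14.13, 14.13 and 14.17 in NSC12 at 12 h, against 14.11, 14.09 and 14.20 in DMSO. Those arrays overlapped, and the change of 0.01 had a 95% interval of -0.10 to 0.12. ATP5F1C, the gamma shaft, changed by 0.16 ± 0.08 at 12 h and did not pass. ATP5F1D, the delta subunit at the foot of the shaft, rose by 0.34 ± 0.09 at 12 h (adjusted p = 0.00442, limma). ATP5F1E, the epsilon subunit, rose at 6 h by 0.31 ± 0.08 (adjusted p = 0.00833), with 12.10, 12.08 and 12.06 in NSC12, against 11.77, 11.60 and 11.95 in DMSO. That call was lost without replicate 2 of DMSO at 6 h (0.22, adjusted p = 0.0761), the lowest of the DMSO arrays.

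In the peripheral stalk, which holds the head still against the turning rotor, 2 of 4 subunits fell at 12 h and none rose. That is 50% of a short list, beside 45.3% of genes above background called in either direction. ATP5PF, also called F6, was at 13.40 ± 0.06 in NSC12 and 13.63 ± 0.07 in DMSO (SD, n = 3 each), a change of -0.22 ± 0.06 (adjusted p = 0.00351, limma). ATP5PO, the subunit that joins stalk and head, was at 13.07 ± 0.06 in NSC12 and 13.28 ± 0.08 in DMSO, a change of -0.21 ± 0.06 (adjusted p = 0.00786), and it fell by 0.18 at 6 h (adjusted p = 0.0411). Both are bright probes whose direction at 12 h depended on the scaling: under median centring the changes were 0.06 and 0.07, without a call. The ATP5PO call at 12 h was lost without replicate 1 of DMSO (-0.17, adjusted p = 0.051). Its call at 6 h was lost without any of 5 single arrays, all those of 6 h but replicate 2 of DMSO (-0.20 to -0.16, adjusted p = 0.0696 to 0.148).

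Among the 3 genes for the c subunit, whose mature proteins are identical and form the rotating ring, ATP5MC1 rose by 0.24 ± 0.07 at 12 h (adjusted p = 0.00642, limma). It read 12.88, 13.13 and 13.04 in NSC12, against 12.68, 12.83 and 12.82 in DMSO, and the call was lost without replicate 2 of NSC12 (0.18, adjusted p = 0.0565). The dimmer probe of ATP5MC1 gave 0.11 at 12 h and 0.23 at 6 h, neither called, while the brightest gave -0.06 at 6 h. ATP5MC2 and ATP5MC3 changed by -0.02 and -0.09 at 12 h, and by -0.15 and -0.08 at 6 h, and none of these passed. Of the 5 small membrane subunits 3 rose at 12 h and none fell (60% called, beside 45.3% of genes above background). ATP5MJ read 10.22, 10.38 and 10.39 in NSC12, against 9.95, 9.80 and 9.66 in DMSO, with no overlap and a rise of 0.52 ± 0.08 (adjusted p = 2.93e-05). ATP5MF, the f subunit, rose by 0.27 ± 0.07 (adjusted p = 0.00249), and ATP5ME, the e subunit that helps the enzyme pair into dimers, by 0.18 ± 0.06 (adjusted p = 0.0291). The ATP5ME call was lost without replicate 3 of DMSO or replicate 2 of NSC12, with a lowest value of 0.12 over all alternatives, and when its probes were averaged (0.14, adjusted p = 0.167). ATP5IF1, which blocks ATP hydrolysis by the enzyme, read 10.98, 11.16 and 11.12 in NSC12, against 10.73, 10.74 and 10.49 in DMSO, and rose by 0.44 ± 0.09 (adjusted p = 0.000348), though its dimmer probe gave -0.12 and did not pass.

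**Figure D3:**
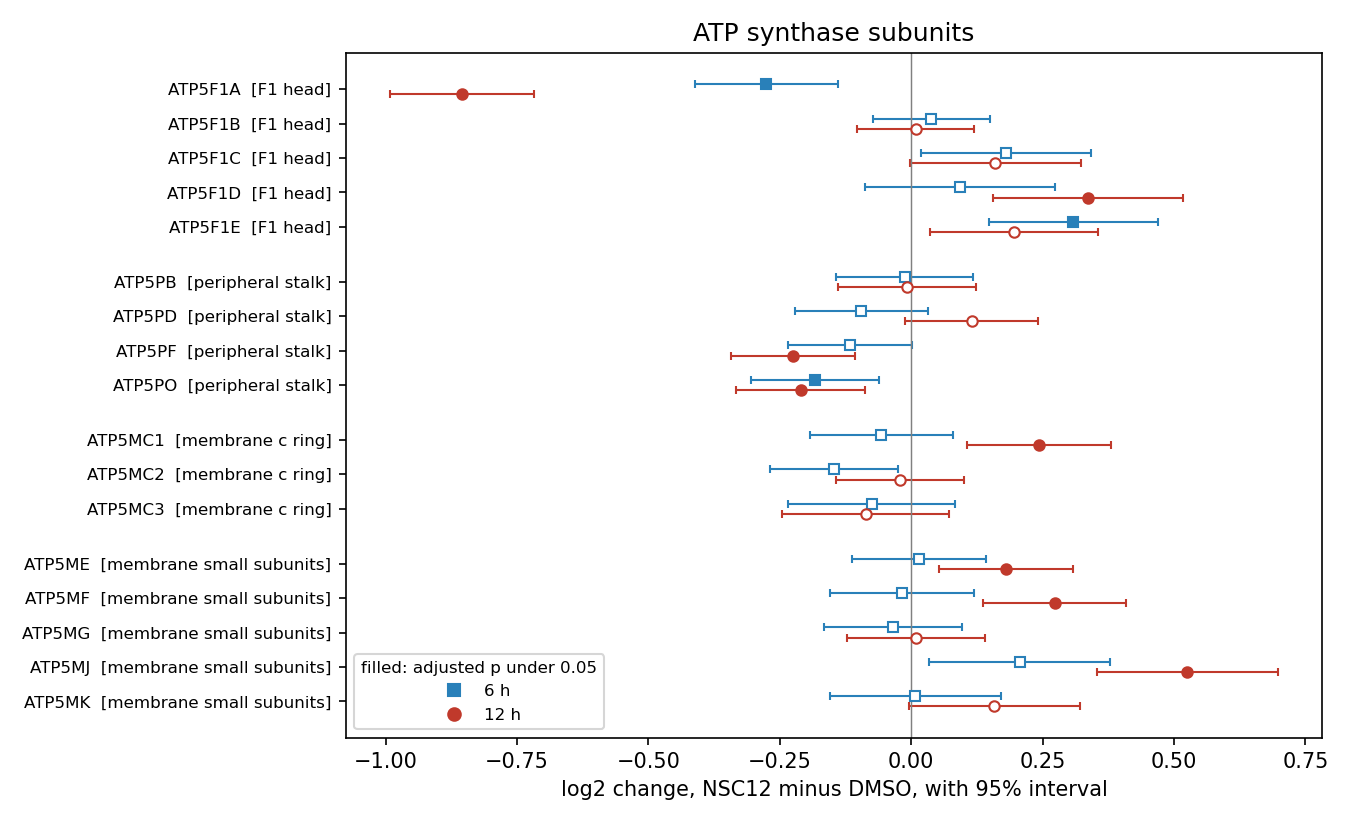
Log2 change of each ATP synthase subunit, NSC12 minus DMSO, at 6 h (squares) and 12 h (circles), with the 95% interval of the fit, ordered by the place of the subunit in the enzyme. Filled marks passed the limma adjusted p. ATP5F1A at 12 h (-0.85, interval -0.99 to -0.72) stands apart from the beta subunit ATP5F1B of the same head, whose interval at 12 h is -0.10 to 0.12.

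Several subunits were measured by more than 1 probe, and 19 had at least 2 above background. At 12 h all such probes fell for SDHA, ATP5F1A and ATP5PF, and all rose for SDHC, ATP5F1D, ATP5ME and ATP5MF. The second probe of SDHA read 9.30, 8.61 and 8.81 in NSC12 at 12 h, against 10.14, 10.27 and 10.62 in DMSO, a change of -1.44 ± 0.15 (adjusted p = 8.07e-08 over all probes, limma). The second probe of ATP5F1A read 13.18, 12.93 and 13.06 in NSC12, against 14.03, 13.97 and 13.94 in DMSO, a change of -0.92 ± 0.06 (adjusted p = 1.67e-10). For both genes neither probe overlapped between groups. The second probe of ATP5F1D rose by 1.01 ± 0.10 (adjusted p = 3.89e-08), more than the 0.34 of the brightest.

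For 6 genes some probes passed, in 1 direction, and others did not. The dimmer probe of ATP5MG, the g subunit, rose by 0.55 (adjusted p = 1.28e-05, limma) while the brightest gave 0.01. A dimmer probe of UQCRB, a small complex III subunit, rose by 0.53 (adjusted p = 1.79e-05) while the brightest gave 0.08. The dimmer probe of ATP5PB, the b subunit of the stalk, fell by 0.55 (adjusted p = 0.000237) while the brightest gave -0.01. ATP5MC1, NDUFA10 and UQCR10 were the others. UQCRH alone had passing probes of opposite sign, and for 5 genes no probe passed.

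**Figure D4:**
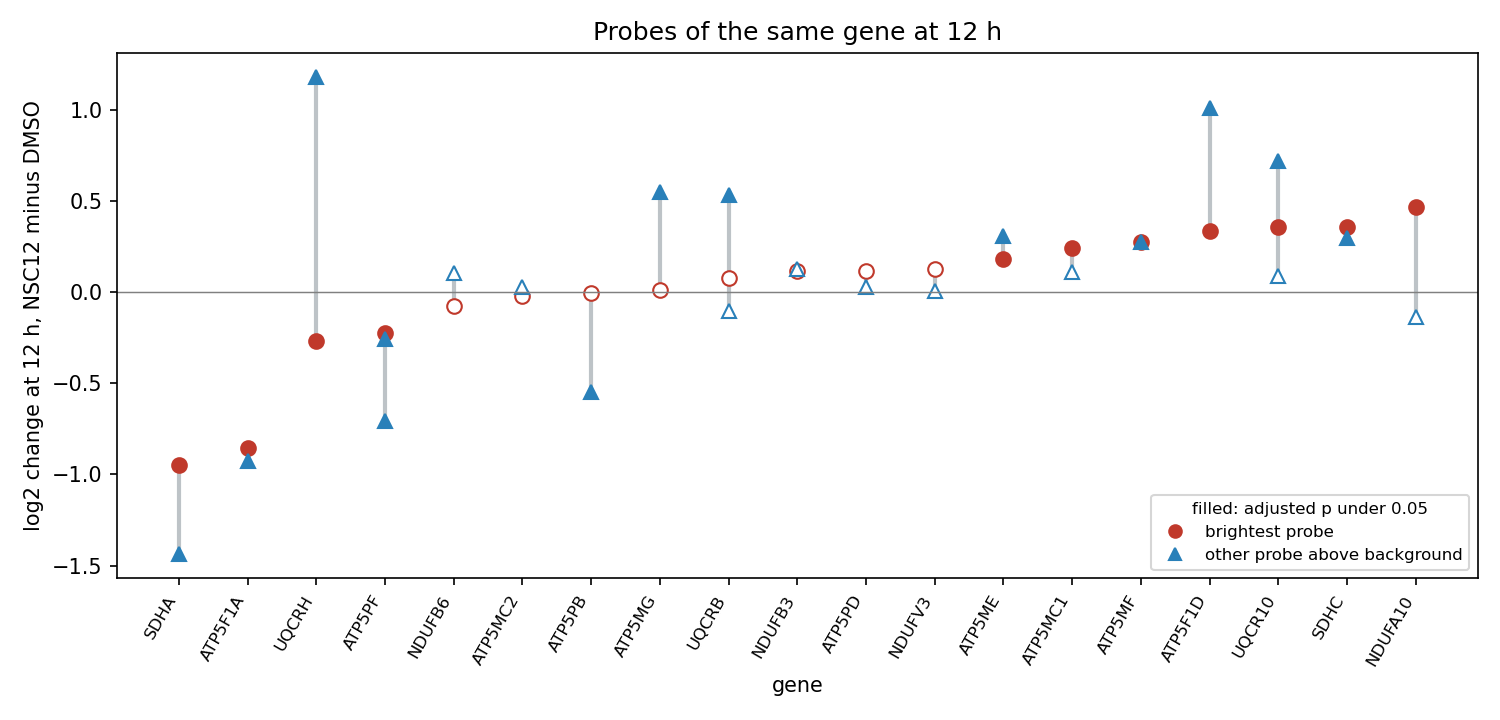
Log2 change at 12 h, NSC12 minus DMSO, for every probe above background of the 19 subunit genes that had at least 2. Circles are the brightest probe and triangles the others, filled where the adjusted p over all probes was under 0.05. The probes of SDHA and ATP5F1A are all low, while those of UQCRH lie at -0.27 and 1.18.

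The effect of NSC12 itself differed between the times for 10 subunits (8 more positive and 2 more negative at 12 h than at 6 h, 12.7% of 79), where 10.4% of all genes did (4.65% more positive and 5.77% more negative). Among genes above background the share was 16.3%, against 14.1% of the 71 subunits above it. SDHA had a difference of -0.62 ± 0.11 (adjusted p = 0.000566, limma) and ATP5F1A of -0.58 ± 0.09 (adjusted p = 0.000333). The 3 largest positive ones were NDUFB11 with 0.56 ± 0.12 (adjusted p = 0.00364), NDUFA7 with 0.45 ± 0.11 (adjusted p = 0.00813) and NDUFA13 with 0.42 ± 0.13 (adjusted p = 0.0445). NDUFA13 was lower at 6 h and level at 12 h, while NDUFB11 and NDUFA7 were called at 12 h alone. The NDUFA13 call was lost without any of 8 single arrays (0.31 to 0.43, adjusted p = 0.0742 to 0.125), namely replicates 1 and 3 of NSC12 and 2 and 3 of DMSO at 6 h, and replicates 2 and 3 of each group at 12 h. Only that of NDUFB11 among these 5 passed under median centring, where SDHA gave -0.49 (adjusted p = 0.426), ATP5F1A -0.28 (adjusted p = 0.623), NDUFA7 0.71 (adjusted p = 0.156) and NDUFA13 0.55 (adjusted p = 0.345). NDUFS4, NDUFS7, COX6A1, ATP5MC1 and ATP5MF had differences of 0.29 to 0.34. None of these 5 was called under median centring, where 1 subunit in all was more positive at 12 h and none more negative. The dimmer probe of ATP5MF gave a difference of 0.31, and that of ATP5MC1 gave -0.12, which was not called. Leaving out 1 array at a time gave 2 to 10 subunits with a called positive difference, and 2 to 5 of them without replicate 1 or 3 of NSC12 or 1 or 2 of DMSO at 6 h, or replicate 2 or 3 of either group at 12 h.

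Between DMSO at 12 h and DMSO at 6 h, no subunit was called by limma, and 4 had an unadjusted p under 0.05. Of all genes 0.399% were called in that comparison. The subunits changed by -0.16 to 0.22 over time in DMSO, with a median of -0.00.

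The partners and builders of the chain were read from lists of other genes. Of 6 carriers and subunits outside the symbol rule, CYCS, the cytochrome c that shuttles electrons between complexes III and IV, fell by 0.73 ± 0.09 at 12 h (adjusted p = 1.32e-06, limma) and by 0.58 ± 0.09 at 6 h (adjusted p = 7.92e-05). CYCS averaged 7.42 ± 0.10 in NSC12 and 8.15 ± 0.06 in DMSO at 12 h (SD, n = 3 each), with no overlap. CYC1, NDUFAB1, COXFA4 and COXFA4L2 did not pass, and COXFA4L3 lay below background.

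Assembly factors moved in both directions too. At 12 h, 47.4% of the complex I factors were called, 75% of complex II, 50% of complex III, 73.9% of complex IV and 50% of ATP synthase factors, beside 28.9% of all genes and 45.3% of those above background, where all these factors lay. The shares for complexes I and III and ATP synthase were thus near that of other detectable genes, and the lists for II, III and ATP synthase hold 4 to 6 genes. For complex II, 3 of 4 rose at 12 h and none fell: SDHAF2, which inserts flavin into SDHA, by 0.41 ± 0.07, SDHAF3 by 0.39 ± 0.10 and SDHAF4 by 0.26 ± 0.09. For complex I, 5 of 19 rose, led by NDUFAF2 (0.80 ± 0.07, adjusted p = 1.83e-08, limma) and NDUFAF5 (0.76 ± 0.10, adjusted p = 2.04e-06), and 4 fell, led by NDUFAF8 (-0.42 ± 0.10). For complex III, 2 of 6 rose, UQCC2, which helps cytochrome b to be made (0.59 ± 0.07), and UQCC3 (0.39 ± 0.10), and TTC19 fell by 0.71 ± 0.09. For complex IV, 12 of 23 rose and 5 fell. The largest of these changes were of COX14 (0.69 ± 0.11) and COA6 (0.64 ± 0.09), which help build its catalytic subunits, and of COA5 (-0.61 ± 0.08). For ATP synthase 1 of 4 rose, ATPAF2 (0.31 ± 0.09), which chaperones the alpha subunit, and 1 fell, TMEM70, which helps the c ring to form (-0.25 ± 0.09). The medians at 12 h were 0.33 for complex II factors, 0.11 for complex I, 0.09 for complex III, 0.24 for complex IV and -0.08 for ATP synthase factors, beside -0.00 for all genes.

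At 6 h the same lists held fewer calls, 0 to 33.3% of each list, beside 20.4% of genes above background. Of the complex I factors 3 rose and 2 fell, of the complex II factors SDHAF2 alone rose (0.27), of the complex III factors 1 rose and 1 fell, and of the ATP synthase factors none was called. Of the complex IV factors 4 rose and 2 fell, and COX19 (-0.69 ± 0.09, adjusted p = 4.87e-06, limma) and COA5 (-0.64 ± 0.08, adjusted p = 7.41e-06) had the largest changes.

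Among 11 regulators of nuclear respiratory genes, 3 rose and 4 fell at 12 h (63.6%, beside 28.9% of all genes and 45.3% of those above background). GABPA, the DNA-binding part of an ETS factor, fell by 0.70 ± 0.11 (adjusted p = 4.37e-05, limma), and its partner GABPB1 rose by 0.38 ± 0.07 (adjusted p = 0.000331). MYC, which drives mitochondrial biogenesis among much else, averaged 12.65 ± 0.18 in NSC12 and 13.23 ± 0.02 in DMSO at 12 h, a fall of 0.59 on the log2 scale (adjusted p = 2.72e-06). At 6 h MYC averaged 13.51 ± 0.12 in NSC12 and 13.17 ± 0.06 in DMSO, a rise of 0.34 ± 0.08 (adjusted p = 0.00338). GABPB1 rose at 6 h as well, by 0.57 ± 0.07 (adjusted p = 9.25e-06), and no regulator fell then, with 18.2% of the list called beside 20.4% of genes above background. The difference between these MYC effects was called (adjusted p = 1.26e-05). NRF1 stood at -0.03 ± 0.07 at 12 h and did not pass.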

How the data were processed

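RNA of KMS-11 cells was labelled with biotin and hybridised to Illumina arrays, per the labels. The deposited values are linear probe intensity values of 47319 probes on 12 arrays, from 69.5 to 25534. How the authors corrected background or normalized is not stated in the labels. The platform annotation gave 1 symbol for 30111 probes, updated by Entrez identifier for 30072 of them to symbols of GRCh38.p14. NDUFA4 and NDUFA4L2 are named COXFA4 and COXFA4L2 there, so the rule does not match them and they are given among carriers outside it.

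A floor of 16 was set, and intensities were quantile normalized and taken to log2. The brightest probe stood for each of 20045 genes. Background was set at the 95th percentile of 371 olfactory receptor genes, by mean level. limma 3.58.1 (R 4.3.3) fitted 1 mean per group over all arrays, with an intensity trend and Benjamini-Hochberg adjustment at 0.05 over all genes, or over all probes where stated. Changes are log2 differences with the SE of the fit. The steps were tested on simulated data. Promoter letters were searched with Python 3.11.15 and figures drawn with matplotlib 3.10.9.

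Members, lists and tests were chosen with earlier results of these data known. Named are, per complex and time, up to 3 called rises and 3 called falls, for the difference between times the 3 largest in each direction, all measured SDH and c subunit genes, tissue-restricted isoforms, and up to 3 members of each list. Where no member of a complex passed, the brightest ones are named. ATP5F1B, ATP5F1C, NDUFS4, NDUFA10, UQCRB, ATP5MG, ATP5PB, ATP5ME, ATP5IF1, the other called complex I genes and NRF1 were added after their values were seen. Alternatives were median centring, cyclic loess, normexp, only genes above background, the mean of all probes, no intensity trend, a replicate block, array brightness as a covariate and leaving out each array. Same-numbered samples did not deviate together: 2 of 18 pairs correlated above 0.1. No pair of arrays held identical values.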

Additional observations from a re-analysis of the deposited data

Results flagged for a closer look

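For 10 subunit genes the change under NSC12 differed between 12 h and 6 h by the test of that difference in limma. For the 5 with the largest differences, the value (12 h minus 6 h, log2) was -0.62 for SDHA, -0.58 for ATP5F1A, 0.56 for NDUFB11, 0.45 for NDUFA7 and 0.42 for NDUFA13. SDHA and ATP5F1A were lower with NSC12 at both times, NDUFB11 and NDUFA7 were called higher at 12 h alone, and NDUFA13 was called lower at 6 h alone. Under median centring the difference kept its call for NDUFB11 and lost it for SDHA (adjusted p = 0.426), ATP5F1A (0.623), NDUFA7 (0.156) and NDUFA13 (0.345). NDUFA13 also lost it under cyclic loess (0.39, adjusted p = 0.0595) and with the replicate block (0.42, adjusted p = 0.0542). For NDUFS4, NDUFS7, COX6A1, ATP5MC1 and ATP5MF the difference was 0.29 to 0.34, with no call under median centring. The dimmer probe of ATP5MF gave 0.31, and that of ATP5MC1 gave -0.12, which was not called.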

How the results depend on the processing

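Of 43 named changes, all 43 kept direction and call with normexp or with only genes above background, and 42 without the intensity trend or with array brightness as a covariate. Median centring kept 19, ended 17 calls with the sign unchanged and turned 7 signs. Among those 7 it also ended the calls of NDUFA1, UQCRH, ATP5PF and ATP5PO at 12 h. Cyclic loess ended 7 calls and turned 1 sign, and the mean of all probes ended 2 and turned 3. The causes were not tested. Of the 28 calls at 12 h, 11 passed under all 20 alternatives: NDUFA7, NDUFB11, NDUFC2, NDUFS4, NDUFS7, SDHA, COX6A1, ATP5F1A, ATP5F1D, ATP5MF and ATP5MJ. Of the 9 at 6 h, NDUFA13 alone did. Changes of dim genes may be understated, since the reported fit subtracted no background. The normexp alternative did subtract it, but the sizes of changes in dim genes were not compared between these fits as a set. For the dim NDUFC2, the change at 12 h ran from -0.45 to -0.26 over all alternatives, against -0.29 in the reported fit.

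Under median centring, 1470 genes were called at 6 h (276 higher), against 2619 (1114 higher) in the reported fit. At 12 h 1483 were higher, against 2734, for the difference between times 364 were called (277 higher, 87 lower), against 2089 (933 and 1156), and over time in DMSO 14 (13 higher, 1 lower), against 80 (50 and 30). Subunits called were then 0 higher and 1 lower at 6 h, 3 lower at 12 h, and 1 higher and 0 lower for the difference. Complex medians under median centring were -0.062 (I), -0.045 (II), -0.047 (III) and -0.067 (V) at 6 h, and 0.18 (I), 0.22 (III), 0.18 (IV) and 0.26 (V) at 12 h. For the difference they were 0.29, 0.20, 0.27, 0.15 and 0.26 for I to V, and over time in DMSO 0.054 (I), 0.053 (III), 0.069 (IV) and 0.049 (V). Cyclic loess gave medians at 12 h of 0.14 (I) and 0.053 (IV), and 16 genes lower over time in DMSO. With only genes above background, 8 subunits were lower at 6 h and the complex IV median at 12 h was 0.060. With the mean of all probes, 8 subunits were lower at 6 h, the complex II median at 6 h was 0.13, and medians of the difference were 0.27 (III) and -0.011 (V). The brightness covariate gave 0.046 for complex II at 6 h.

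Signs turned under median centring for COX6C (-0.016) and SDHC (-0.045) at 6 h and for NDUFA1 (0.065), UQCRH (0.0026), ATP5PF (0.055), ATP5PO (0.070) and ATP5MC2 (0.26) at 12 h. With the mean of all probes they turned for ATP5MC1 at 6 h (0.087), and for UQCRH (0.45) and ATP5MC2 (0.023) at 12 h, and with cyclic loess for ATP5MC2 (0.056). Leaving out 1 array, COX6C at 6 h ran from -0.0083 (without NSC12 replicate 1, and -0.0033 without replicate 2) to 0.071, and ATP5MC2 at 12 h from -0.069 to 0.023 (without NSC12 replicate 3).

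Leaving out 1 array at a time gave 1 to 4 subunits higher and 3 to 6 lower at 6 h, with medians of -0.027 to 0.034 (I), 0.038 to 0.13 (II) and -0.024 to 0.022 (III). For the difference it gave 2 to 10 higher and a complex V median of 0.0096 to 0.10, and over time in DMSO 21 to 123 genes called, 13 to 80 higher and 8 to 54 lower. Rises at 6 h were fewest (1) without NSC12 replicate 1 at 6 h, and 2 without NSC12 replicate 2 or DMSO replicate 1 or 2 at 6 h or DMSO replicate 2 at 12 h. Falls at 6 h were fewest (3) without replicate 1 or 3 of either group at 6 h. Rises in the difference were 2 to 5 without NSC12 replicate 1 or 3 or DMSO replicate 1 or 2 at 6 h, or replicate 2 or 3 of either group at 12 h.

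Replicate numbers did not pair the samples: same-numbered samples correlated at -0.465 to 0.175 in their deviations, and differently numbered ones at -0.193 to 0.44. With the replicate block 18 genes were lower over time in DMSO, and among named changes it ended only the calls of UQCR10 at 6 h (0.28, adjusted p = 0.0511) and of NDUFA13 for the difference (0.42, adjusted p = 0.0542).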

Other observations

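Of 15 measured genes of the citric acid cycle, which feeds complexes I and II, 5 rose and 2 fell at 12 h. That is 46.7% of the list, near the 45.3% called among all genes above background, so the count shows nothing particular to the cycle. IDH3G, the gamma subunit of NAD-dependent isocitrate dehydrogenase, averaged 10.33 ± 0.13 in NSC12 and 9.42 ± 0.13 in DMSO (log2, SD, n = 3 each) and rose by 0.91 ± 0.09 (adjusted p = 7.29e-08, limma). SUCLG2, a subunit of the GTP-forming succinyl-CoA synthetase, which makes the succinate that complex II oxidises, rose by 0.75 ± 0.08 (adjusted p = 1.39e-07), and its partner SUCLG1 by 0.51 ± 0.07 (adjusted p = 7.7e-06). CS, the citrate synthase that opens the cycle, averaged 12.40 ± 0.07 in NSC12 and 12.90 ± 0.11 in DMSO and fell by 0.50 on the log2 scale (adjusted p = 2.49e-06). PDHA1, a subunit of pyruvate dehydrogenase, fell by 0.44 (adjusted p = 0.000391). At 6 h 3 rose and 1, CS, fell (26.7% of the list, beside 20.4% of genes above background; CS at -0.31 ± 0.07, adjusted p = 0.00197).

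Of 13 genes of mitochondrial protein import, through which nuclear-encoded subunits enter, 2 rose and 3 fell at 12 h (38.5%, not above the 45.3% of genes above background). PMPCA, a subunit of the peptidase that removes import signals, averaged 9.92 ± 0.06 in NSC12 and 10.64 ± 0.05 in DMSO and fell by 0.72 (adjusted p = 7.65e-08, limma). At 6 h PMPCA fell by 0.60 (adjusted p = 3.94e-06). TOMM20, a receptor of the outer membrane, fell by 0.58 at 12 h (adjusted p = 5.72e-07), and TIMM17B, part of the inner membrane channel, rose by 0.45 ± 0.08 (adjusted p = 0.000123). These lists were not run under the alternatives.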
